A study of Homo sapiens with 2 samples.

Results

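The 45 protein-coding genes of the matrix metalloproteinase (MMP), ADAMTS and TIMP families on chromosomes 1 to 22 were examined in DNase-seq data from U2OS and Saos-2, a pair of osteosarcoma cell lines. They were chosen by gene symbol from 19122 protein-coding genes of the RefSeq annotation and comprised 23 MMP genes, 19 ADAMTS genes and the 3 inhibitor genes TIMP2, TIMP3 and TIMP4. TIMP1 lies on chromosome X and was not a member. The nuclease DNase I cuts open chromatin, and stretches dense in cuts were called by the authors as hotspots at a false discovery rate of 0.05. Saos-2 and U2OS are established human lines without a treatment in this study, and each was represented by 1 library. No value therefore has a replicate error, no test between the lines was possible, and differences compare 2 libraries. A hotspot was assigned to a gene when it overlapped the gene span plus 10 kb on either side. Positions are on hg38.

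MMPs are zinc-dependent endopeptidases that are secreted or held at the cell surface as inactive precursors and cleave collagens, proteoglycans and other matrix proteins. ADAMTS enzymes are secreted relatives with thrombospondin repeats, several of which cleave large proteoglycans, the propeptides of procollagens or von Willebrand factor. TIMPs bind the active site of MMPs and inhibit them, and TIMP2 also takes part in the activation of MMP2 by the membrane-anchored MMP14. In bone the families are known for the turnover of collagen and of cartilage matrix, and MMP13 is the collagenase of hypertrophic chondrocytes and osteoblasts.

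The deposited lists held 51556 hotspots in Saos-2 and 63388 in U2OS. Read depth is unknown for both, and a deeper library gives more hotspots and higher significance. A gene without a hotspot has no region past the authors' threshold, which does not show that its chromatin was closed. The lines' DNA copy number at these genes was not measured, and more copies of a locus cannot be told apart from greater accessibility. VIM and RUNX2, genes of mesenchymal and osteoblast cells, had a hotspot within 1 kb of their start in both lines. PTPRC, CDH1 and EPCAM, genes of blood and epithelial cells, had none there in either line. They were not free of hotspots, as the span plus 10 kb held 5 U2OS and 4 Saos-2 hotspots at PTPRC, 11 and 3 at CDH1, and 0 and 1 at EPCAM. CD3E, a T cell gene, had a hotspot within 1 kb of one of its ends in both lines. Of the other osteoblast genes, counting either end where the strand was not given, ALPL had such a hotspot in Saos-2 alone, COL1A1 had one in U2OS alone, and SP7 and COL1A2 had none.

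Promoter sequences were available for 26 of the 45 genes in the RefSeq table (GRCh38.p14) and were cut to the 250 bases before the annotated gene start. ADAMTS10 had 2 starts there, which gave 27 windows. A hotspot covered part of 5 windows in Saos-2 and 8 in U2OS, and 4 of these windows were covered in both lines. Over all 21155 windows of protein-coding genes on chromosomes 1 to 22 the shares were 40.1% and 44.0%. The 9 windows below are all those of members with a hotspot in either line, shown because they hold the promoters that the lines share and do not share, each 5′ to 3′ on the strand of the gene. Capitals mark matches to any of the motifs searched. The ADAMTS12 window (chr5:33891991-33892240, minus strand) was covered over all 250 bases in U2OS and not in Saos-2. The MMP10 window (chr11:102780629-102780878, minus strand) was covered over 127 bases in U2OS alone, and these were the bases next to the start, with the TATA box match. The MMP15 window (chr16:58025504-58025753, plus strand) was covered over 249 bases and the TIMP3 window (chr22:32801455-32801704, plus strand) over 121 bases, again in U2OS alone. The ADAMTS17 window (chr15:100341976-100342225, minus strand) was covered over 194 bases in Saos-2 and 250 in U2OS. The ADAMTS6 window (chr5:65481921-65482170, minus strand) was covered over 121 bases in Saos-2 and 160 in U2OS. The ADAMTS3 window (chr4:72569222-72569471, minus strand) was covered over 116 bases in Saos-2 and 168 in U2OS. The window at the inner start of ADAMTS10 (chr19:8592217-8592466, minus strand) was the only shared one with more bases covered in Saos-2, 227 beside 95 in U2OS, and it held no match to the motifs searched. The ADAMTS7 window (chr15:78811465-78811714, minus strand) was covered over 86 bases in Saos-2 alone.
ADAMTS12: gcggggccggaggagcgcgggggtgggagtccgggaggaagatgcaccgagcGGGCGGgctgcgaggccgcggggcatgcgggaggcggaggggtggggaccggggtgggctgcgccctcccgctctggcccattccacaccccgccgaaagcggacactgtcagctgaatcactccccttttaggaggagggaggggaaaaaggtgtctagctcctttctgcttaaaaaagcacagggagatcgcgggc
MMP10: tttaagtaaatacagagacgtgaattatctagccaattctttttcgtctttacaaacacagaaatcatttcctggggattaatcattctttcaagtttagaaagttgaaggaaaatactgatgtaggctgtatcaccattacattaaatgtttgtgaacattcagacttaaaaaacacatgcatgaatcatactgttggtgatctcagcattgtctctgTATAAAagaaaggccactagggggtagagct
MMP15: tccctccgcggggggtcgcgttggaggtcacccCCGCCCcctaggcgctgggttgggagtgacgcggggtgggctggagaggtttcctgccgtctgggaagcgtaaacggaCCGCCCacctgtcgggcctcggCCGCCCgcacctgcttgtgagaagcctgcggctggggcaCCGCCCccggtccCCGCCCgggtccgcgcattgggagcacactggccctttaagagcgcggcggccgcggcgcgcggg
TIMP3: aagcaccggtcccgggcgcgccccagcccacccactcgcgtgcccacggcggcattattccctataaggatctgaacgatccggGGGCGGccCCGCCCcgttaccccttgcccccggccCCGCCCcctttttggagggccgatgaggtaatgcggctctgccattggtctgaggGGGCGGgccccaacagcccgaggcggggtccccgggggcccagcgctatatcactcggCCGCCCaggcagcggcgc
ADAMTS17: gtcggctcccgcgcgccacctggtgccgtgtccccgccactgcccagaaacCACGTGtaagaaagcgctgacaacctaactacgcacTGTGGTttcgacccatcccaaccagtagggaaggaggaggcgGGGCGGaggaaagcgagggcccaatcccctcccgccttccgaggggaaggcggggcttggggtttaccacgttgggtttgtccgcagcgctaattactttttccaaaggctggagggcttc
ADAMTS6: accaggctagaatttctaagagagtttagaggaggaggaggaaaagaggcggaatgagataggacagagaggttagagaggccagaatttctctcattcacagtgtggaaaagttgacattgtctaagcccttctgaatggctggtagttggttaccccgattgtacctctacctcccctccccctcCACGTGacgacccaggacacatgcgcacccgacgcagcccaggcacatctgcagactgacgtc
ADAMTS3: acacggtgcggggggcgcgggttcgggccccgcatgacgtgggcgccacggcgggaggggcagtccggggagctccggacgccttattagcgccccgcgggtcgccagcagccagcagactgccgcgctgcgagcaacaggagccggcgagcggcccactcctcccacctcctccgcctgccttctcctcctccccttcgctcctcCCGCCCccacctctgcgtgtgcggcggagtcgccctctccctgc
ADAMTS10: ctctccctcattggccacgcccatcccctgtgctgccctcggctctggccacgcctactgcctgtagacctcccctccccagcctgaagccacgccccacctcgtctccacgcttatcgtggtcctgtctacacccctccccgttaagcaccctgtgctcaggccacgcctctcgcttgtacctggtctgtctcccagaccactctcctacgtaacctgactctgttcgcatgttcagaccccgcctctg
ADAMTS7: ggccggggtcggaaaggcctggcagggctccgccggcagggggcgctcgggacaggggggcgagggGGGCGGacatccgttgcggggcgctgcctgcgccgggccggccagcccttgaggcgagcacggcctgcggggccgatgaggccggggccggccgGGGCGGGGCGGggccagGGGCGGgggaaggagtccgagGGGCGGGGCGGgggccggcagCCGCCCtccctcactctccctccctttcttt

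The motifs searched on both strands were the AP-1 motif TGAGTCA, the CRE motif TGACGTCA and the E-box CACGTG. The GC box GGGCGG, the TATA box TATAAA and the RUNX motif TGTGGT were searched in the same way. No motif shares its full letters with another, although matches of the GC box can overlap each other, as in ADAMTS7. GC box letters were found in 18 of the 27 windows, beside 54.0% of all windows. TATA box letters were in 7 of the 27, namely those of MMP7, MMP8, MMP10, MMP20, MMP21, MMP26 and the outer start of ADAMTS10, beside 9.03% of all windows. The MMP10 window was the only one of these 7 with a hotspot. The letters began 28, 30 and 31 bases before the start in MMP26, MMP7 and MMP10. In MMP20, ADAMTS10, MMP21 and MMP8 they began 72, 78, 92 and 110 bases before it, in ADAMTS10 on the opposite strand. MMP7, MMP8, MMP10 and MMP20 lie in the same cluster on chromosome 11 and are not independent. AP-1 letters occurred in 1 window, that of MMP7, beside 3.43% of all windows, and no hotspot was called over it. Members without a window, among them MMP1, MMP2, MMP3, MMP9, MMP12 and MMP13, were not searched for any motif. The E-box was found in 3 windows (7.34% of all), RUNX letters in 3 (9.27% of all) and CRE letters in 0 (2.05% of all). The 9 windows with a hotspot in either line had a median GC content of 68.4%, and the 18 without had 65.4%, beside 65.2% and 57.2% over all windows. A match describes letters and not a bound site.

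Across the 45 genes U2OS had 159 hotspots and Saos-2 had 93, a ratio of 1.71, while the ratio over the windows of all protein-coding genes was 1.17. Per 100 kb this was 1.91 hotspots in Saos-2 and 3.26 in U2OS, beside 2.36 and 2.75 for all protein-coding windows. The Saos-2 density was thus below that of all genes and the U2OS density above it. The covered length differed in the same direction, with more bases in U2OS at 34 genes and more in Saos-2 at 7, and none in either line at the other 4. Among all protein-coding genes, 53.6% had more covered bases in U2OS and 33.0% more in Saos-2. The median difference of U2OS minus Saos-2 was 331 bp for the 45 genes and 37.0 bp for all genes. The U2OS list is also the longer one. With both lists reduced to 51556 hotspots, in order of significance, U2OS had 133 hotspots at the 45 genes and Saos-2 had 93.

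A hotspot was present in both lines at 31 of the 45 genes, beside 71.8% of all protein-coding genes. It was present in U2OS only at 8 genes (17.8% of the 45, beside 10.9% of all genes) and in Saos-2 only at 2 genes (4.44%, beside 4.08%). MMP21, MMP23B, MMP27 and ADAMTS8 had none in either line (8.89%, beside 13.3%). A gene was counted as higher in a line when its covered length was at least 2-fold that of the other line and at least 500 bp. By this rule 19 genes (42.2%) were higher in U2OS, beside 14.2% of all genes, and 1 gene (2.22%) was higher in Saos-2, beside 6.19% of all genes. In lists of equal length the numbers were 16 in U2OS (12.6% of all genes) and 3 in Saos-2 (7.38% of all genes). The 19 genes comprised 10 of the 19 ADAMTS genes, 8 of the 23 MMP genes and TIMP3. Of the 12 members with a span of at least 100 kb, 9 were higher in U2OS, beside 25.0% of the 3214 protein-coding genes of that length. Shorter genes were not counted apart, and the part of gene length in these differences was not tested. Several members also share a neighbourhood and are not independent. Surrounding regions were richer in U2OS hotspots as well. Within 1 Mb outside the windows, the median ratio of U2OS to Saos-2 hotspots was 1.38 for the 45 genes, 1.48 for the 19 genes and 1.23 for all genes. The part of the surroundings in these differences was not tested.

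**Figure D1:**
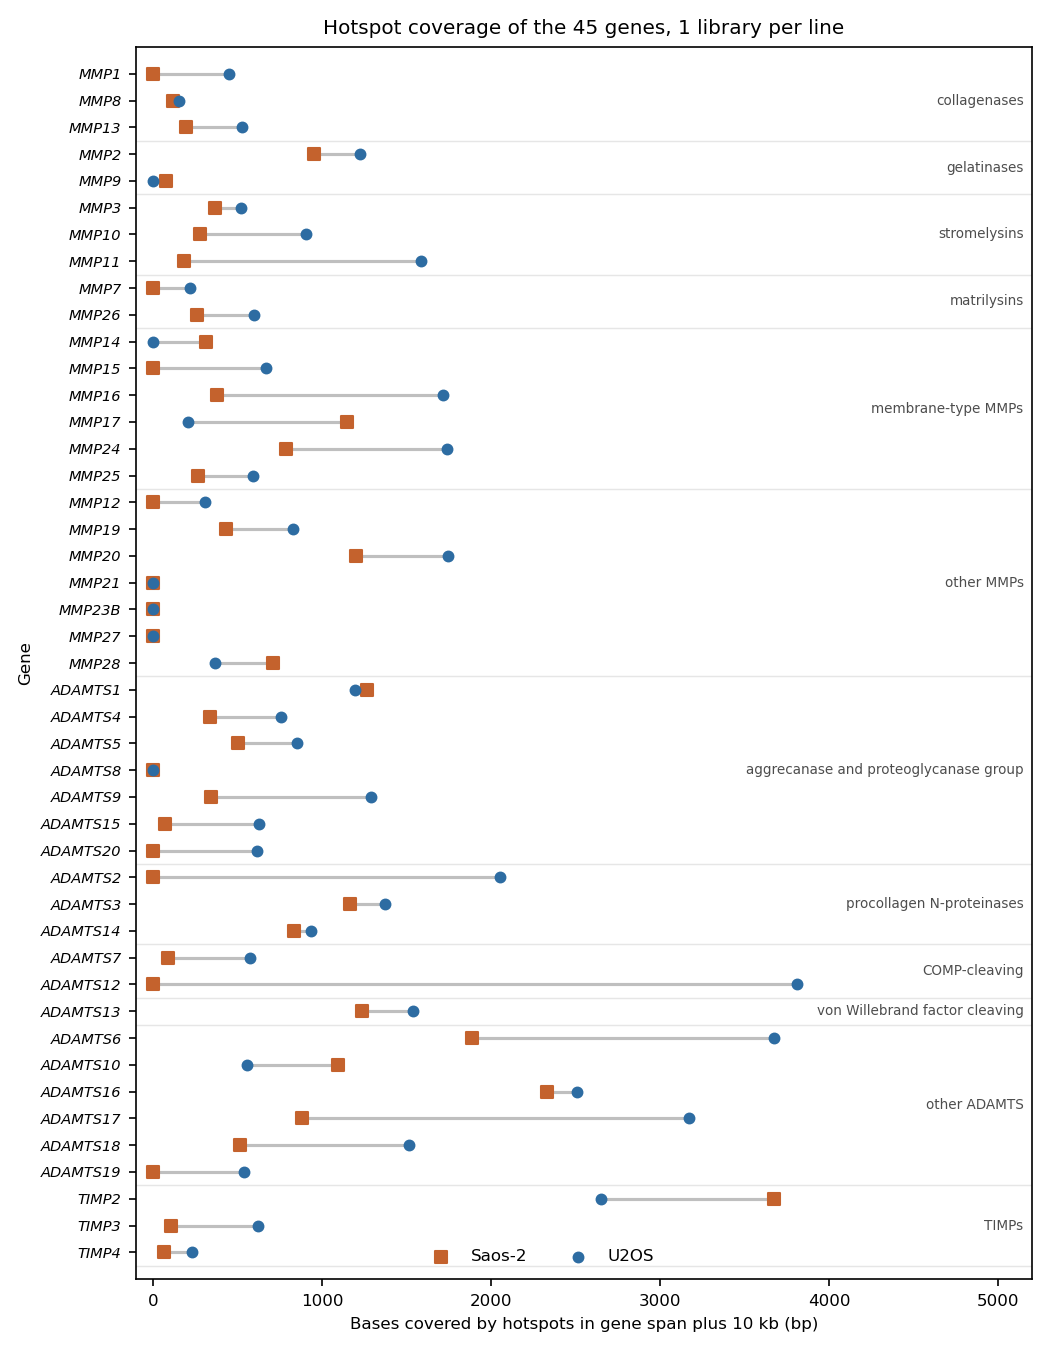
Bases covered by hotspots in each gene span plus 10 kb (x axis, bp) for the 45 genes (y axis), with a square for Saos-2, a circle for U2OS and a grey line between the 2 values. The circle lies to the right at 34 genes and the square at 7, and the widest gap is that of ADAMTS12, with 3808 bp in U2OS and 0 bp in Saos-2.

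**Figure D2:**
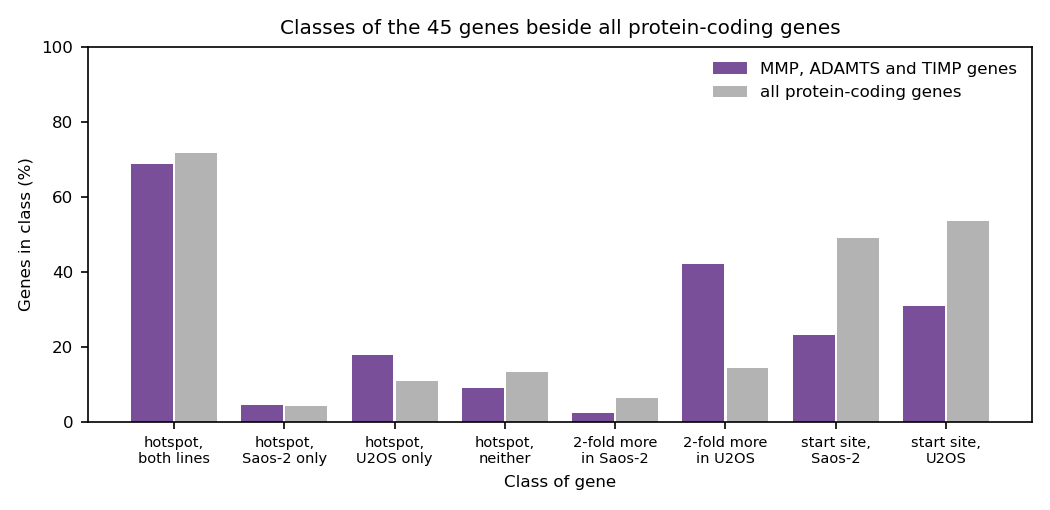
Share of genes (y axis, %) in each class of hotspot presence, 2-fold coverage difference and start-site hotspot, for the members (purple) and all protein-coding genes (grey); the start-site bars use the genes whose strand was given, 26 members and 15100 genes. The members stand above all genes for coverage at least 2-fold higher in U2OS (42.2% and 14.2%) and below them at the start site in both lines.

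A smaller share of members than of all genes had a hotspot at the start site, a difference given here without a test. The strand was known for 26 members, and 6 of them had a hotspot within 1 kb of the start in Saos-2 (23.1%, beside 48.9% of 15100 genes) and 8 in U2OS (30.8%, beside 53.6%). Neither line had one at 15 of the 26 (57.7%, beside 41.8%). With either end counted where the strand was not given, 10 of 45 members had such a hotspot in Saos-2 (beside 46.5% of all genes) and 13 in U2OS (beside 51.9%). Summed over the members' windows, the hotspot overlapped the window's own gene in 65.6% of 93 cases for Saos-2 and 73.8% of 160 for U2OS, where 1 hotspot lies in the windows of 2 members. The values were 69.5% and 69.0% over the windows of all genes, and start-site hotspots inside a gene are among those counted. The annotation used gives gene spans, not exons, so exonic, intronic and untranslated positions were not distinguished. Some hotspots lie at neighbouring genes, as 11 of those in U2OS and 9 of those in Saos-2 were within 1 kb of the start of another protein-coding gene. No share over all protein-coding windows is given for this count, so it cannot be called few or many.

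Of the Saos-2 member hotspots, 63.4% (59 of 93, 95% Wilson interval 53.3 to 72.5%) shared at least 1 bp with a U2OS hotspot, close to the 60.9% found over all protein-coding windows. Of the U2OS member hotspots, 37.1% (59 of 159, interval 30.0 to 44.8%) shared bases with a Saos-2 hotspot, below the 51.7% (51.2 to 52.2%) of all protein-coding windows. These intervals reflect counting error alone and treat hotspots as independent. The 100 U2OS hotspots without overlap were narrower than the overlapped ones, 206 bp wide in the median beside 340 bp. Their median significance, a deposited value taken as −log10 of the false discovery rate, was 3.54 against 8.48. In Saos-2 the 34 without overlap had a median width of 165 bp and a significance of 2.51, and the overlapped ones 242 bp and 3.88. To compare ranks within each list, each hotspot was given the percentage of its own list with lower significance. At or above percentile 90, 0 of 6 Saos-2 member hotspots lacked an overlap, beside 9.49% of 3560 such hotspots in all protein-coding windows. Of 16 such U2OS hotspots 5 lacked one, beside 11.1% of 4376, and these 5 lay at ADAMTS12 or ADAMTS2. Over the 61 overlapping pairs the U2OS hotspot held the higher percentile in 42 and the Saos-2 hotspot in 18, with 1 tie. This was 68.9% for U2OS, beside 56.1% of 20897 pairs in all protein-coding windows.

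**Figure D3:**
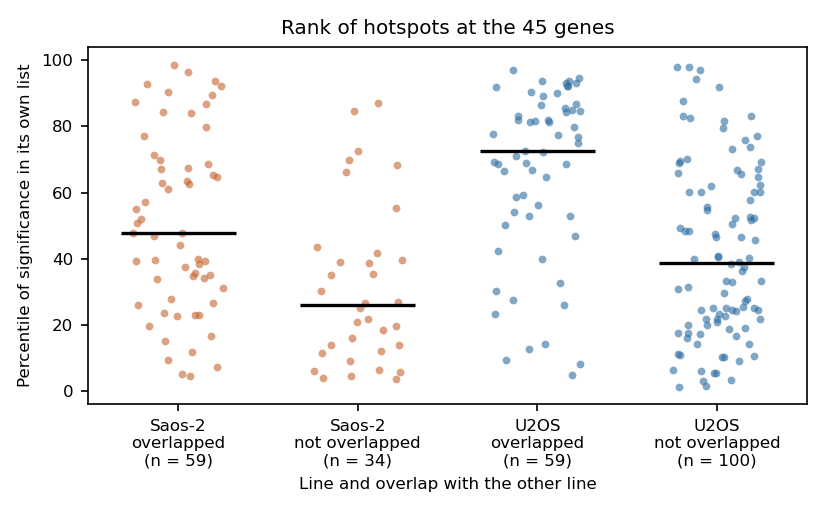
Percentile of each member hotspot in the significance ranking of its own list (y axis), by line and by overlap with the other line (x axis); points are hotspots and black lines are medians. The medians are 47.9 and 25.9 for overlapped and other Saos-2 hotspots, and 72.5 and 38.6 for the U2OS ones.

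The collagenases MMP1, MMP8 and MMP13 cleave the triple helix of fibrillar collagens. MMP1 (gene 4312, chromosome 11, 102789919 to 102798160) had no hotspot in Saos-2 and 2 in U2OS, covering 452 bp. One of them, at 102794521 to 102794709 with a significance of 4.25, lay inside the gene. The other, at 102780493 to 102780755 with a significance of 5.98, covers the start of MMP10. MMP13 (gene 4322, chromosome 11, 102942995 to 102955732) had a hotspot of both lines at its upper-coordinate end, where the significance was 7.11 in U2OS and 3.59 in Saos-2. A second U2OS hotspot at 102941034 to 102941301, with a significance of 8.71, had no Saos-2 counterpart, so that covered length was 528 bp in U2OS and 197 bp in Saos-2. MMP8, the neutrophil collagenase, had 1 weak overlapping hotspot in each line, 8.51 kb upstream of its start in Saos-2, with a significance of 2.96 in U2OS and 2.51 in Saos-2.

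The gelatinases digest denatured collagen and basement membranes. MMP2 (gene 4313, chromosome 16, 55478830 to 55506691) had 4 hotspots in each line, covering 1226 bp in U2OS and 951 bp in Saos-2, and 2 of them overlapped. The hotspot inside the gene at 55500015 to 55500299 in Saos-2 had a significance of 3.14, and its U2OS counterpart had 11.7. A further U2OS hotspot at 55502825 to 55503189, with a significance of 7.65, had no overlap. MMP9 (gene 4318, chromosome 20, 46008908 to 46016561) had no hotspot in U2OS and 1 of 74 bp in Saos-2. Its significance was 1.70, and it lay at the start of the neighbouring SLC12A5.

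The stromelysins MMP3 and MMP10 degrade many matrix proteins and activate other MMPs, and MMP11 is secreted in its active form. MMP11 (gene 4320, chromosome 22, 23772849 to 23784316) had 7 hotspots in U2OS, covering 1583 bp, and 1 in Saos-2, covering 181 bp. The strongest U2OS site, at 23771005 to 23771304 and 1.69 kb upstream of the start, had a significance of 15.1 and no overlap. The single Saos-2 hotspot, with a significance of 3.30, lay within 1 kb of the start of SMARCB1, as did its U2OS counterpart. MMP10 (gene 4319, chromosome 11, 102770502 to 102780628) had 280 bp covered in Saos-2 and 903 bp in U2OS. Its start-site hotspot was found in U2OS only, and a shared site 18.8 kb from the start, beyond the end of the gene, had a significance of 13.3 in U2OS and 4.76 in Saos-2. MMP3 (gene 4314, chromosome 11, 102835801 to 102843609) had a site 7.89 kb above its upper end that both lines shared, where the significance was 10.9 in U2OS and 13.4 in Saos-2. A weaker U2OS site at 102849451 to 102849615, with a significance of 2.66, had no overlap.

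Of the matrilysins, which lack the haemopexin domain of other MMPs, MMP7 (gene 4316, chromosome 11) had 1 hotspot of 220 bp in U2OS and none in Saos-2. Its significance was 3.52, and it lay 2.83 kb inside the gene. MMP26 (gene 56547, chromosome 11, 4704784 to 4992429) had 1 hotspot in Saos-2 and 2 in U2OS, covering 257 and 600 bp. The site they shared had a significance of 21.6 in U2OS and 6.32 in Saos-2. Among the other MMPs, MMP12 (gene 4321, chromosome 11), the macrophage elastase, had 1 hotspot in U2OS with a significance of 7.87 and none in Saos-2. MMP20, the enamel protease enamelysin, was covered in both lines, with 1745 bp in U2OS and 1199 bp in Saos-2, and every one of its hotspots was overlapped. MMP19 had 433 and 829 bp and MMP28 707 and 364 bp in Saos-2 and U2OS, respectively.

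The 9 MMP genes of the chromosome 11 cluster, from MMP7 to MMP13, lie within 435 kb between 102520508 and 102955732. The cluster with 10 kb at either side held 13 hotspots in Saos-2 and 18 in U2OS, covering 3728 and 6438 bp. Of the Saos-2 hotspots 11 were overlapped, and of the U2OS hotspots 10 were, beside 60.9% and 51.7% over all protein-coding windows. The strongest U2OS site, at 102552122 to 102552956 with a significance of 25.9, lay between MMP7 and MMP20, outside the window of every member, and its Saos-2 counterpart had 13.0. The highest Saos-2 value was 13.9, inside MMP20, where U2OS had 11.5. U2OS hotspots without overlap numbered 8 and were spread from MMP7 to MMP13, while Saos-2 had 2. The group of genes from MMP10 to MMP12 had 2 Saos-2 hotspots in all, both overlapped.

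**Figure D4:**
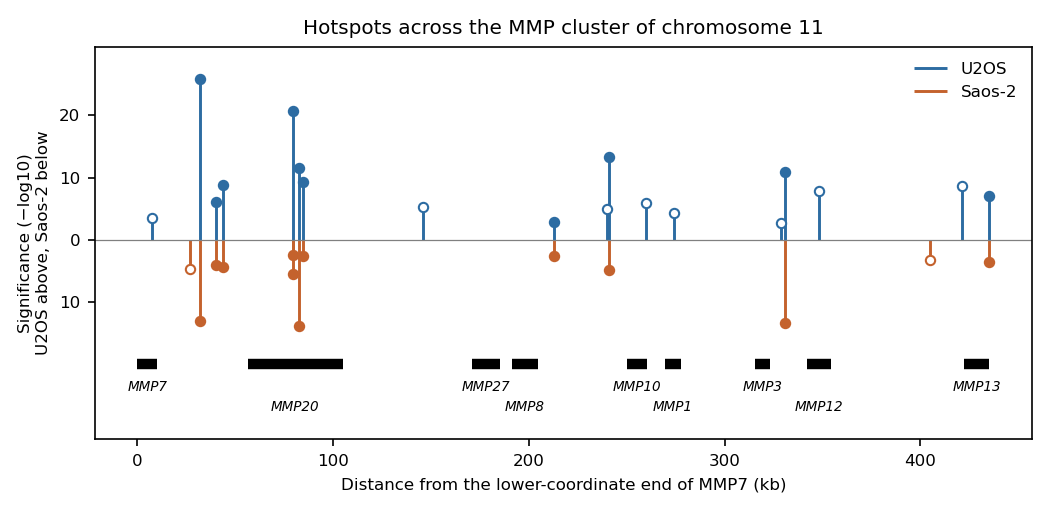
Hotspots across the MMP cluster of chromosome 11, with distance from the lower-coordinate end of MMP7 (x axis, kb). The y axis is the deposited significance, taken as −log10, with U2OS upward and Saos-2 downward. Filled circles are overlapped by the other line, open circles are not, and black bars are genes. Of 18 U2OS hotspots 8 are open, and of 13 Saos-2 hotspots 2 are. Over all protein-coding windows, 51.7% of U2OS and 60.9% of Saos-2 hotspots were overlapped.

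Membrane-type MMPs act at the cell surface, MMP14, MMP15, MMP16 and MMP24 through a transmembrane segment and MMP17 and MMP25 through a lipid anchor. Of these 6 genes 4 were higher in U2OS and MMP17 in Saos-2, beside 14.2% and 6.19% of all genes. MMP14 (gene 4323, chromosome 14, 22836585 to 22847758) had 2 hotspots in Saos-2, covering 311 bp, and none in U2OS, where the nearest lay 11.4 kb below the gene. One Saos-2 hotspot, at 22838704 to 22838898 with a significance of 3.26, was 2.22 kb inside the gene, and the other, with 2.32, lay at the start of MRPL52. MMP15 (gene 4324, chromosome 16, 58025754 to 58046901) showed the opposite pattern, with 4 hotspots and 667 bp in U2OS and none in Saos-2. Those at its start had a significance of 2.21 and 2.66, both in the lower 50% of the U2OS list, and the highest of the 4 was 3.70. MMP16 (gene 4325, chromosome 8, 88032011 to 88327483) had 1718 bp in U2OS and 379 bp in Saos-2. Its upper-coordinate end carried a U2OS hotspot of 504 bp with a significance of 11.7, and another with 12.0 lay 1.31 kb beyond, both without overlap. The 1 Mb flanks of MMP16 held 5 Saos-2 and 31 U2OS hotspots, the highest ratio of any member at 6.20.

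MMP24 (gene 10893, chromosome 20, 35226690 to 35276998) had 1738 bp in U2OS and 786 bp in Saos-2, with a shared site 36.6 kb inside the gene of significance 5.43 in Saos-2 and 21.4 in U2OS. The strongest U2OS site without overlap had 6.72, and the start-site hotspot of MMP24, found in U2OS only, had 2.26. The hotspots inside MMP24 also lay within the span of MMP24-AS1-EDEM2, so they cannot be assigned to a single gene. MMP25 (gene 64386, chromosome 16) had 268 and 594 bp, and its U2OS site without overlap, with a significance of 4.32, was within 1 kb of the start or end of IL32. MMP17 (gene 4326, chromosome 12, 131828393 to 131851771) was the only member counted as higher in Saos-2, with 1147 bp against 208 bp in U2OS, a ratio of 5.51. Most of this came from a 715 bp hotspot at 131860547 to 131861261, 9.13 kb above the gene, with a significance of 10.7 and no overlap.

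The aggrecanase and proteoglycanase group cleaves aggrecan and versican, and ADAMTS4 and ADAMTS5 are the main aggrecanases of cartilage. ADAMTS5 (gene 11096, chromosome 21, 26917922 to 26967088) had 4 hotspots in U2OS and 3 in Saos-2, covering 851 and 503 bp, respectively. Its shared site near the lower end had a significance of 7.52 in U2OS and 6.12 in Saos-2. At the upper end each line had its own site, with a significance of 4.43 in U2OS and 2.07 in Saos-2. ADAMTS1 (gene 9510, chromosome 21, 26835755 to 26845409), its neighbour on the chromosome, had nearly equal coverage, with 1195 bp in U2OS and 1268 bp in Saos-2. The site inside ADAMTS1 at 26840994 to 26841147 in Saos-2 had a significance of 2.93, and its counterpart in U2OS had 13.1. A Saos-2 pair 8.76 and 9.20 kb below the gene, with 6.57 and 3.55, had no overlap. ADAMTS4 (gene 9507, chromosome 1, 161184302 to 161199054) had 757 bp in U2OS and 338 bp in Saos-2. Only 1 hotspot, in U2OS with a significance of 2.52, lay inside ADAMTS4.

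ADAMTS9 (gene 56999, chromosome 3, 64515654 to 64688000) had 1288 bp in U2OS and 344 bp in Saos-2. Its strongest site, with 8.85, was found in U2OS only, and the highest Saos-2 value was 2.37. ADAMTS15 (gene 170689, chromosome 11) had 68 and 629 bp, a ratio of 9.25, with a U2OS hotspot of significance 3.72 at its lower end that had no overlap. ADAMTS20 (gene 80070, chromosome 12, 43352763 to 43552203) had 2 U2OS hotspots inside the gene, of significance 5.96 and 10.7, and none in Saos-2. The Saos-2 interval without a hotspot around it was 419 kb long. ADAMTS8, of the same group, had no hotspot in either line. Of these 7 genes 4 were higher in U2OS and none in Saos-2, beside 14.2% and 6.19% of all genes.

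ADAMTS12 (gene 81792, chromosome 5, 33523535 to 33891990), which cleaves cartilage oligomeric matrix protein, differed most between the lines. It had 11 hotspots and 3808 bp covered in U2OS and none in Saos-2, where 556 kb around it held no hotspot. The U2OS site of highest significance, 33.2, was at 33788797 to 33789302, 103 kb inside the gene from its start. Upstream of the start, hotspots at 33892703 to 33893185 and at 33894567 to 33895107 had 29.3 and 22.7, and the hotspot over the start itself, at 33891982 to 33892374, had 6.33. The sites with 33.2 and 29.3 stood at percentiles 98.0 and 97.0 of the U2OS list. Hotspots in the 1 Mb flanks numbered 52 in Saos-2 and 76 in U2OS, a ratio of 1.46, so Saos-2 hotspots were called around the interval but not in it. ADAMTS7 (gene 11173, chromosome 15, 78759206 to 78811464), which cleaves the same protein, had 1 Saos-2 hotspot of 86 bp at its start, with a significance of 1.63. U2OS had none there and 2 elsewhere, of significance 7.15 and 7.71, so no ADAMTS7 site was shared and coverage was 86 and 572 bp.

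The procollagen N-proteinases ADAMTS2, ADAMTS3 and ADAMTS14 remove the amino-terminal propeptide of fibrillar procollagens. ADAMTS2 (gene 9509, chromosome 5, 179110853 to 179345461), the main such enzyme of skin, had 8 hotspots and 2053 bp in U2OS, all inside the gene, and none in Saos-2. Its sites at 179265340 to 179266018 and at 179275898 to 179276314 had a significance of 33.9 and 19.0, at percentiles 98.1 and 91.8 of the U2OS list, and the value of 33.9 was the highest at any of the 45 genes. No hotspot lay within 1 kb of its start. The Saos-2 interval without a hotspot was 333 kb long, and the flanks held 41 Saos-2 and 62 U2OS hotspots. ADAMTS3 (gene 9508, chromosome 4, 72280969 to 72569221) and ADAMTS14 (gene 140766, chromosome 10, 70672506 to 70762441) differed little, with 1167 and 1371 bp for ADAMTS3 and 832 and 933 bp for ADAMTS14 in Saos-2 and U2OS. Both start-site hotspots of ADAMTS3 were shared, the stronger with a significance of 14.5 in U2OS and 8.14 in Saos-2. All 3 sites of ADAMTS14 were shared, and the one 7.62 kb upstream had 21.5 in Saos-2 and 29.3 in U2OS.

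ADAMTS6, ADAMTS10 and ADAMTS17 are linked to fibrillin microfibrils. ADAMTS6 (gene 11174, chromosome 5, 65148738 to 65481920) had 13 hotspots in U2OS, the most of any member there, and 6 in Saos-2, covering 3675 and 1885 bp, respectively. Its strongest site was shared, with 15.4 in Saos-2 and 22.8 in U2OS, and so was that at its start, with 3.03 and 16.4. A Saos-2 hotspot at 65394118 to 65394598, with 7.07, had no overlap. ADAMTS17 (gene 170691, chromosome 15, 99971437 to 100341975) had 5 and 11 hotspots and 879 and 3173 bp. The start-site hotspot was shared and had 3.88 in Saos-2 and 17.2 in U2OS, and the strongest U2OS site without overlap, at 100111131 to 100111462, had 12.3. The strongest Saos-2 site, with 5.96, lay beyond the end of the gene and had no overlap. ADAMTS16 (gene 170690, chromosome 5, 5140330 to 5320304) had 8 and 7 hotspots with 2331 and 2506 bp. Its 4 shared sites were stronger in U2OS, the highest with 20.4 there against 2.99 in Saos-2.

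ADAMTS18 (gene 170692, chromosome 16, 77282128 to 77435034) had 1517 bp in U2OS and 514 bp in Saos-2. Both Saos-2 sites were shared, the stronger with 6.57 in Saos-2 and 7.66 in U2OS, and 3 U2OS sites were not. ADAMTS19 (gene 171019, chromosome 5, 129460298 to 129738683) had 3 weak U2OS hotspots, the highest of significance 4.66, and none in Saos-2. Here the surroundings differed too, with 9 Saos-2 and 31 U2OS hotspots in the flanks. Of the 5 members on chromosome 5, ADAMTS2, ADAMTS12 and ADAMTS19 were covered in U2OS only, beside 10.9% of all genes. ADAMTS6 and ADAMTS16 were covered in both lines. The share among all genes of chromosome 5 was not computed. The ratio of U2OS to Saos-2 hotspots on that chromosome was 1.42, beside 1.24 on chromosomes 1 to 22. ADAMTS10 (chromosome 19) went the other way, with 554 bp in U2OS and 1095 bp in Saos-2. Its strongest site, at 8592240 to 8592853 in Saos-2 with a significance of 12.0, covers 227 of the 250 bases before its inner annotated start but not the start itself, and U2OS had 3 narrow hotspots there, the highest with 1.87. ADAMTS13, which cleaves von Willebrand factor, had 1237 and 1537 bp, and its strong sites lay at the starts of REXO4 and CACFD1 in both lines.

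**Figure D5:**
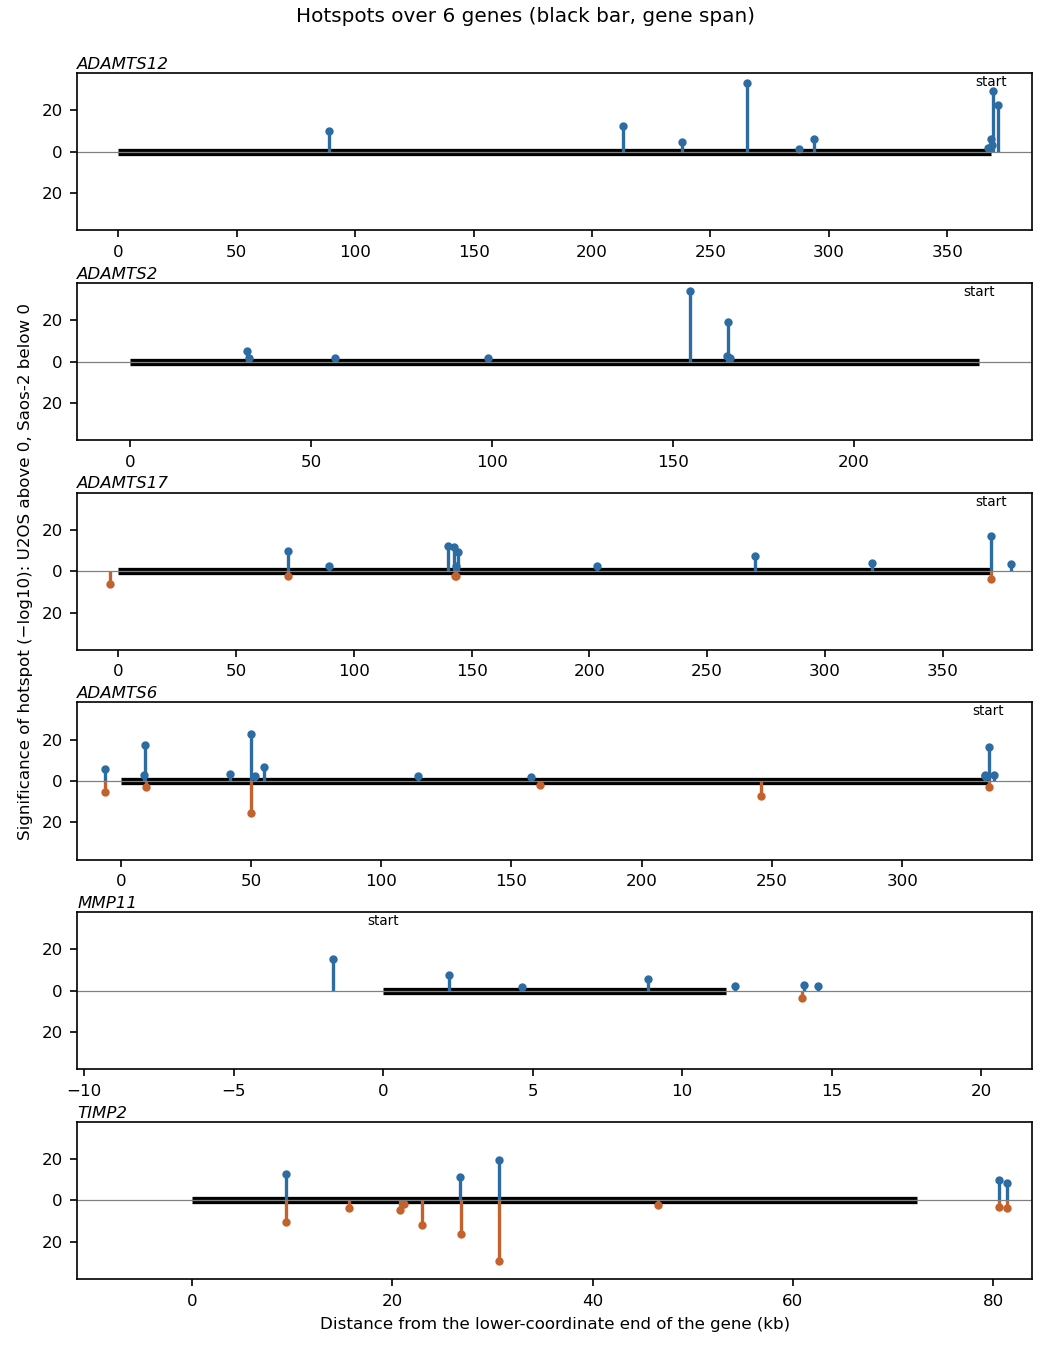
Hotspots over 6 genes, with distance from the lower-coordinate end of the gene (x axis, kb). The y axis is the deposited significance, taken as −log10, with U2OS upward in blue and Saos-2 downward in orange. The black bar is the gene span, and the annotated start is marked where the strand was given. ADAMTS12 and ADAMTS2 carry U2OS hotspots alone, while TIMP2 has 10 Saos-2 hotspots, 5 of them matched in U2OS.

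The inhibitors did not share one direction. TIMP2 (gene 7077, chromosome 17, 78852977 to 78925387) had 10 hotspots and 3673 bp in Saos-2, the most of any member in that line, and 5 hotspots and 2649 bp in U2OS. All 5 U2OS hotspots were overlapped. The strongest site, at 78883138 to 78884166 in Saos-2, had a significance of 29.4 there and of 19.3 in U2OS. Of the 5 Saos-2 hotspots without overlap, all inside the gene, the strongest, at 78875738 to 78876181, had 11.8. TIMP3 (gene 7078, chromosome 22, 32801705 to 32863041), which binds to the matrix and inhibits ADAMTS4 and ADAMTS5, had 622 bp in U2OS and 105 bp in Saos-2. Its 4 U2OS hotspots lay from the start to 2.54 kb inside the gene, with a significance between 2.25 and 2.82. The Saos-2 hotspot, 4.69 kb upstream, had 1.67, and no TIMP3 site was shared. TIMP4 (gene 7079, chromosome 3, 12153068 to 12158912) had 1 hotspot in each line without overlap, of 62 bp and significance 1.69 near its start in Saos-2 and of 231 bp and 5.97 inside the gene in U2OS. TIMP3 lies within SYN3 and TIMP4 within SYN2, so their hotspots cannot be assigned to one gene.

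For other genes of extracellular proteolysis, a list of 24 with plasminogen activators, their inhibitors, ADAM and ADAMTS-like proteins and cathepsins was set beside the members. Of these, 20 were covered in both lines, beside 71.8% of all genes. Hotspots were found only in U2OS at 2 (beside 10.9%) and only in Saos-2 at 2 (beside 4.08%). By the 2-fold rule U2OS was higher at 4 of the 24 (beside 14.2% of all genes) and Saos-2 at 2 (beside 6.19%). The 2 were BSG, which encodes an inducer of MMPs, and THBS1. The 4 were ADAMTSL1, ADAMTSL3, CTSB and FURIN, the protease that activates membrane-type MMPs. ADAMTSL3 had 4108 bp in U2OS and 0 bp in Saos-2. The start site was covered in 12 of the 24 in Saos-2 and in 13 in U2OS, beside 46.5% and 51.9% of all genes. RECK, a membrane inhibitor of MMPs, had 2551 bp in U2OS and 1691 bp in Saos-2, and all 6 of its Saos-2 hotspots were overlapped.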

How the data were processed

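DNase-seq hotspots of 1 Saos-2 and 1 U2OS library were analysed as deposited. Per the submitters' processing notes, Trimmomatic 0.38, BWA 0.7.15 and hg38 were used. The hotspot caller, its read filters and the handling of duplicates are not given in the sources used here. Each deposited list gives position and, without a header, a value taken here as −log10 of the FDR and called significance. This reading rests on its lowest value, 1.30, which would be the FDR of 0.05 in the deposited file names. The cap is 100. The deposited score is 10 times the significance, rounded, and was not used further. The lists give no read depth.

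Genes, strands and promoter sequences came from RefSeq tables on GRCh38.p14. Overlap needed at least 1 bp. Hotspots were counted once in totals, though neighbouring genes can share one. The strand was not given for 19 members, for which both ends counted as start. Overlap code was checked on simulated intervals (Python 3.11.15, pandas 2.3.3, statsmodels 0.14.6). With 1 library per line no test was run. Background percentages are over all protein-coding genes of chromosomes 1 to 22.

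The members and lists were chosen with earlier results of these data known. Every member is accounted for; named singly are members covered in 1 line, those with a 2-fold difference, the 5 with the most hotspots per line and 12 fixed genes, with their strongest, start-site and strongest unshared hotspots; the further members and sites named, and the list of related genes named, were chosen after their values were seen. Alternatives were the top 50% of each list, lists of equal length, merging below 150 bp, other windows, start distances and overlaps.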

Additional observations from a re-analysis of the deposited data

How the results depend on the processing

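No paired analysis was possible because each line was represented by 1 library, and no replicate could be left out. Of 66 values recomputed under alternatives, 47 stayed within 1.5-fold (counts) or within the Wilson interval (shares). With the top 50% of each list, member hotspots numbered 35 in Saos-2 and 84 in U2OS, 74.3% of the Saos-2 ones were overlapped, only Saos-2 covered 1 gene and only U2OS 13, 2 were higher in Saos-2 by the 2-fold rule (6.68% of all genes), and 2 had a Saos-2 start-site hotspot (33.8% of all genes). With gene spans alone, Saos-2 had 61 member hotspots, only Saos-2 covered 1 gene and only U2OS 15. With 50 kb added, hotspots numbered 174 and 263, no gene (0) was covered in Saos-2 only and 1, ADAMTS12, in U2OS only. The cause of these shifts was not tested. When 50% of both hotspots had to overlap, the overlapped share was 26.4% in U2OS and 45.2% in Saos-2. For the overlapped shares and the genes covered in 1 line only, no share over all genes was computed under the alternatives. These counts and shares therefore cannot be called particular to the members. With lists of equal length 3 genes were higher in Saos-2 (7.38% of all genes). Without hotspots near the start of another gene, chosen after seeing the data like all alternatives to the 2-fold rule, 1 gene was covered in Saos-2 only and 2 were higher in Saos-2 (5.1% of all genes). Genes higher in U2OS numbered between 14 and 21 under every alternative run, 21 with 50 kb added, where 20.3% of all genes were. Differences in depth between the lists were not measured.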
